A study of Mus musculus with 108 samples.

Results

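The genes described here are 10 activity-regulated immediate early genes, Fos, Fosb, Junb, Egr1, Egr2, Npas4, Nr4a1, Nab2, Arc and Dusp1. They were chosen by name, as the rows whose Ensembl identifiers carry these symbols, and all 10 were found among the 53465 genes of the table. RNA from the cerebellum (CB), the hippocampus (HIP) and the cortex (CX) was sequenced in 108 libraries, made from 36 mice that were wild type (WT) or heterozygous for Cul3 (Cul3+/-) and were taken at E17.5, at P7 or as adults. Cul3 encodes the scaffold protein of a family of ubiquitin ligases, and the study asked how the loss of 1 copy altered expression across regions and development. The adult mice are labelled P35 and are described as aged 4 to 6 weeks, and the strain of all mice is labelled C56Bl/6N.

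The mutation is a 1-base insertion in exon 6 of Cul3 made by genome editing. The mutant line descends from a single founder that was crossed to WT mice for at least 4 generations, the WT mice are littermates, and no other allele or agent is described for either group. At E17.5 and P7 each genotype had 6 mice, and in adults it had 5, because the labels and a table of the study gave opposite genotypes for the adult mice P35_22 and P35_23. These mice were left out, so 102 libraries from 34 mice were compared. Each library is 1 region of 1 mouse. Each genotype held both sexes, but which mouse was of which sex, and how the mice were handled just before the tissue was taken, are not given in the sources used here.

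Immediate early genes are transcribed within minutes of a stimulus, without new protein being made, by factors that are already present in the cell. In neurons calcium entry and the MAP kinase cascade activate CREB, which binds cAMP response elements (CRE), and SRF, which binds CArG boxes. Fos, Fosb and Junb are subunits of the AP-1 transcription factor, Egr1 and Egr2 are zinc finger factors, Npas4 is a factor induced by calcium mainly in neurons, and Nr4a1 is an orphan nuclear receptor. Nab2 binds EGR proteins and represses them, Dusp1 dephosphorylates MAP kinases, and Arc acts at synapses in the removal of AMPA receptors. Their transcripts are short-lived, and a level measured once reflects the recent state of the tissue.

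RefSeq promoter windows of the GRCm38.p6 build were at hand for 8 of the 10 genes (not for Arc and Egr1), and each was searched on both strands over the 250 bases before the start. The full CRE, TGACGTCA, was found before Dusp1 and is in 1.55% of all 32851 promoters. Its shorter core TGACG, which the full CRE contains on both strands, was found before 7 of the 8 genes, all but Nab2, and is in 17.8% of all promoters. For Npas4, 1 of these 7, all 250 bases searched lie within annotated exons. A CArG box (CC, 6 bases A or T, GG) was found before Egr2 (1.47% of all promoters), and the EGR site GCGGGGGCG before Fosb and Nr4a1 (2.57%). A TATA box TATAAA was found before Fos (12.4%), and the AP-1 site TGANTCA before none of the 8 (6.75%). The 8 genes have 12 windows, several of them of Egr2, and a gene counts if any of its windows holds a match. The shares of all promoters are per window, so the counts of genes cannot be compared with them directly. These are matches of letters and were not tested for binding. The upstream sequences of 4 genes are shown because they hold each kind of match and belong to the genes whose levels are followed most closely below, or, in Egr2, to the gene with the lowest adult cerebellar level. Capitals mark the matches.
Fos (chr12:85473640-85473889, plus strand): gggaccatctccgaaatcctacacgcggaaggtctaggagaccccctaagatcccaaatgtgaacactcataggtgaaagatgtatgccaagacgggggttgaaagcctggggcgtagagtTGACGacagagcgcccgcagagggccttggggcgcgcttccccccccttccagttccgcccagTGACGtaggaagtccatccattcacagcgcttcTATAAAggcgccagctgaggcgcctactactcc
Nr4a1 (chr15:101266596-101266845, plus strand): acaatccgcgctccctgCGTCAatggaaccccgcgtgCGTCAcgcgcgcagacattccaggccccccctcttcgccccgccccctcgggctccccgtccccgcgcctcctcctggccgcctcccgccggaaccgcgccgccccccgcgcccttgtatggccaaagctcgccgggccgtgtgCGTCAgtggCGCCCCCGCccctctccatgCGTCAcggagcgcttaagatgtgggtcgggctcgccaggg
Egr2 (chr10:67537619-67537868, plus strand): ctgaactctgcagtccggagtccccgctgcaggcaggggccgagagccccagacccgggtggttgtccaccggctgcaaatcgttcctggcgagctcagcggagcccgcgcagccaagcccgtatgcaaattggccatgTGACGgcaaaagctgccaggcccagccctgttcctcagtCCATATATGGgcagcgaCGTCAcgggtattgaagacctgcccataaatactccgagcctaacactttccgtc
Dusp1 (chr17:26508520-26508722, minus strand, bases 250 to 48 before the start): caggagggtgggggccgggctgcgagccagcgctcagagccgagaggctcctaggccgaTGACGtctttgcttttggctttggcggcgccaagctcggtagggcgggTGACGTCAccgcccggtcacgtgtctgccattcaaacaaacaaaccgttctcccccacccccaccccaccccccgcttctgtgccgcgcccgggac
The CRE of Dusp1 lies 143 to 136 bases before its start. In Fos the copies of TGACG lie at 129 to 125 and 66 to 62 bases and the TATA box at 33 to 28 bases. In Nr4a1 there are 4 copies, all on the minus strand, between 233 and 36 bases before the start, and in Egr2 the CArG box at 72 to 63 bases lies between 2 copies.

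The counted genes lie at chr12:85473890-85477273 (Fos, plus strand), chr7:19302696-19310051 (Fosb, minus), chr8:84974484-84978718 (Junb, minus), chr18:34859823-34864984 (Egr1, plus) and chr10:67535475-67542188 (Egr2, plus) in the GRCm38 annotation. Arc lies at chr15:74669083-74672570 (minus), Npas4 at chr19:4984355-4990316 (minus), Nr4a1 at chr15:101254269-101274795 (plus), Dusp1 at chr17:26505590-26562128 (minus) and Nab2 at chr10:127660918-127668568 (minus). Overlaps were counted between exons of a member and the whole span of another gene, introns included. Exons of Junb overlap the span of Prdx2 by 173 bases, and those of Dusp1 overlap that of Ergic1 by 50 bases. Exons of Nab2 overlap the spans of Stat6 by 40 bases, Nemp1 by 173 bases and the antisense gene Gm16229 by 1095 bases. In adults Gm16229 itself was at 0.249 CPM (counts scaled to a common library size) or less in each library.

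The libraries held 15126114 to 44411282 expected counts each, and CPM are set on library sizes normalized by the TMM method. Cul3 was at 161.3 to 217.6 CPM in the WT libraries compared and at 85.54 to 124.8 CPM in the Cul3+/- libraries, with no overlap. Emx1, a marker of cortex and hippocampus, was at or below 0.107 CPM in every CB library and at or above 6.95 CPM in CX and HIP, and En2, a cerebellar marker, was at or above 68.0 CPM there and at or below 0.96 CPM elsewhere. No pair of replicates was alike enough to be a single library under separate names. Of the adult mice, Cul3+/- mouse P35_27 and WT mouse P35_17 stood apart in the immediate early genes. The adult genotype comparison and the correlations between regions are also given without single mice. The correlations among members within a region are not.

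Per length of exon, Arc was the most abundant of the 10 in adult WT CX, with a mean of 133.6 CPM per kilobase, and Fosb the least, with 2.643 CPM per kilobase. Junb followed Arc at 41.71, then Fos at 34.52, Egr1 at 33.38 and Nr4a1 at 27.44 CPM per kilobase. In adult HIP Arc again had the highest value, 48.86 CPM per kilobase, and Junb the next, 16.65. Adult CB had another order, with Nab2 at 24.02, Fos at 16.99, Dusp1 at 14.36 and Arc at 7.535 CPM per kilobase.

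In CX of WT mice the immediate early genes rose in 2 steps. From E17.5 to P7, edgeR's quasi-likelihood test at an adjusted p of 0.1 called 9 of the 10 higher and 1, Dusp1, lower, while 41.3% of all genes were called higher and 40.6% lower. Fosb, Egr2 and Npas4, 3 of these 9, did not pass the filter on low counts within E17.5 CX and entered the test through the later periods, so their calls and the median of this step are a description. From P7 to adults it called all 10 higher, against 33.2% of all genes higher and 34.5% lower. The median log2 fold change of the 10 genes was 2.42 in the first step and 3.11 in the second, and that of all genes tested was 0.01 and −0.03. Leaving out any 1 replicate changed none of these counts by over 1.5 times.

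**Figure D1:**
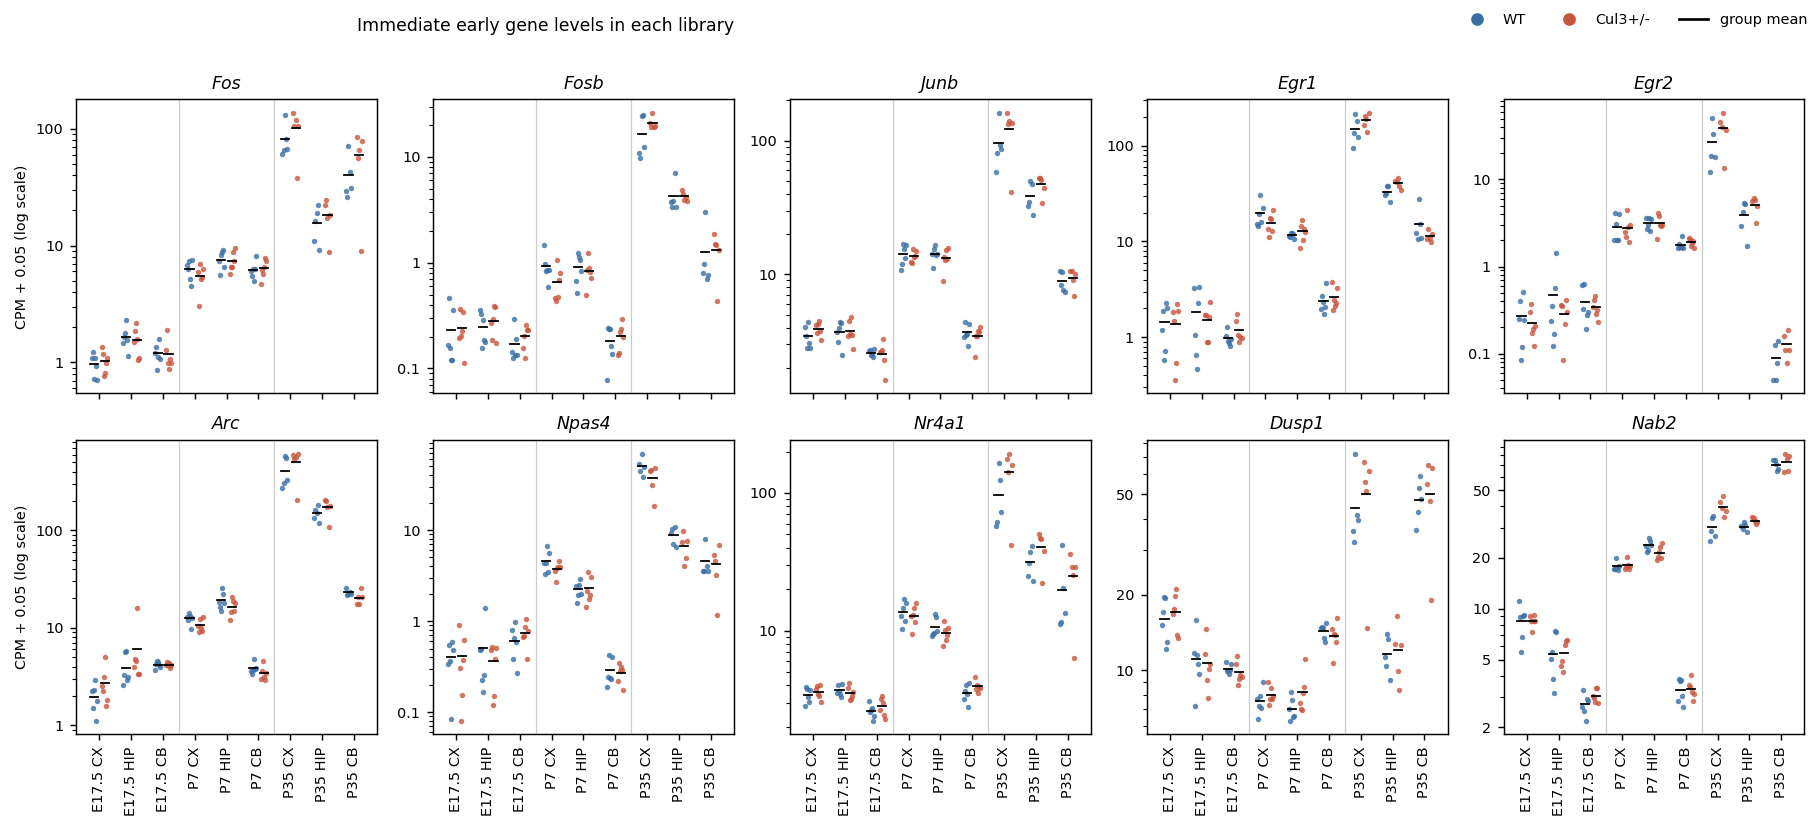
CPM plus 0.05 of each immediate early gene on a log scale, in each library, by period and region; points are mice, blue WT and red Cul3+/-, and black lines are group means. Adult CX is the highest WT group for 8 of the 10 genes, and Dusp1 and Nab2 are highest in adult CB.

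Arc had the largest of these changes. In WT CX it was at 1.07 CPM at the lowest, 1.95 at the median and 2.83 at the highest at E17.5, and at 9.73, 12.7 and 14.1 CPM at P7. The 5 adult WT mice P35_11, P35_15, P35_17, P35_26 and P35_31 had 272, 307, 577, 554 and 332 CPM. The groups of the 3 periods did not overlap. Arc thus rose 6.253-fold to P7 (log2 fold change 2.64, SE 0.23, adjusted p = 6.024e-09 from edgeR) and 33.63-fold from P7 to adults (log2 fold change 5.07, SE 0.22, adjusted p = 1.672e-12 from edgeR).

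Fos in WT CX was at 0.66, 0.963 and 1.17 CPM (lowest, median and highest of 6) at E17.5 and at 4.43, 6.50 and 7.45 CPM at P7. In the adult WT mice, in the same order as for Arc, it was at 61.0, 66.1, 132, 81.0 and 66.4 CPM. Every adult was above every P7 mouse, a 13.3-fold rise (log2 fold change 3.73, SE 0.20, adjusted p = 1.9e-11 from edgeR). Its AP-1 partners rose as well, Fosb 19.14-fold and Junb 6.969-fold from P7 to adults.

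Among the other transcription factors, Egr1 in CX rose 13.62-fold from E17.5 to P7 and 7.787-fold from P7 to adults, and Egr2 and Npas4 rose 9.613-fold and 11.36-fold in the second step. For Egr2 and Npas4 the E17.5 libraries of WT CX held 1 to 13 and 1 to 17 counts, too few for the size of the first step to be given. Egr1 reached 149.7 ± 46.21 CPM, Npas4 50.72 ± 11.6 CPM, Nr4a1 96.27 ± 47 CPM and Egr2 26.52 ± 15.47 CPM in adult WT CX (SD, n = 5). The MAP kinase phosphatase Dusp1 took a different course. It was at 12.1, 16.1 and 19.5 CPM (lowest, median and highest) at E17.5 and at 6.39, 7.41 and 8.95 CPM at P7, with no overlap. Dusp1 therefore changed by −1.138 on the log2 scale, a fall (SE 0.18, adjusted p = 1.098e-05 from edgeR) before it rose 6.02-fold to 44.22 ± 16.16 CPM in adults. Nab2, the repressor of EGR proteins, changed least from P7 to adults, with a 1.74-fold rise to 30.05 ± 4.53 CPM.

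In HIP of WT mice the same test called 9 genes higher and Dusp1 lower from E17.5 to P7 (all genes, 38.9% higher and 39.1% lower), with Fosb and Egr2 below the filter within E17.5 HIP, and 9 higher from P7 to adults (31.3% and 31.5%). The exception in the second step was Egr2, with 3.123 CPM at P7 and 3.83 CPM in adults (log2 fold change 0.32, SE 0.40, adjusted p = 0.5228 from edgeR). Arc rose 7.922-fold in that step, from 19.18 to 149.4 CPM, and Fos 2.092-fold, from 7.536 to 15.5 CPM. The second step was smaller in HIP than in CX for each of the 10 genes, as the period by region interaction in WT mice showed, which called 10 of 10 lower in HIP against 10.3% of all genes called in that direction (17.6% in either). Between E17.5 and P7 the same interaction called 5 of 10 (38.6% of all genes), with Fosb, Egr2 and Npas4 below the filter within E17.5 CX.

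In CB of WT mice the rise came mostly after P7. From E17.5 to P7, 6 of the 10 genes were called higher and 1, Npas4, lower (all genes, 35.7% higher and 35.5% lower), with a median log2 fold change of 0.46. Fos rose 5.275-fold in this step, Egr2 was called higher from a level below the filter within E17.5 CB, and Arc was at 4.119 CPM at E17.5 and 3.798 CPM at P7 (adjusted p = 0.1634 from edgeR). From P7 to adults 9 were called higher and 1, Egr2, lower (40.0% and 39.4% of all genes). Nab2 rose the most, 21.83-fold (log2 fold change 4.45, SE 0.11, adjusted p = 8.038e-17 from edgeR), from 2.57, 3.35 and 3.80 CPM (lowest, median and highest of 6) at P7 to 75.2, 75.3, 71.5, 64.9 and 66.3 CPM in the adult WT mice. Npas4 and Fosb, called higher as well, were below the filter within P7 CB, where Npas4 had 5 to 12 counts in the WT libraries, and they entered the test through the other periods. Egr2 was below the filter within adult CB too. The calls of Npas4, Fosb and Egr2 in either step, and the median of the first step, are therefore a description. The means of Npas4 were 0.2376 CPM at P7 and 4.485 CPM in adults.

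Egr2 was close to undetectable in adult CB. The 5 WT libraries held 0, 3, 0, 1 and 3 counts of it and the Cul3+/- libraries 3, 2, 1, 4 and 2, whereas P7 CB had a mean of 1.727 CPM in WT mice. At such counts the size of the fall depends on the prior count of the fit and is not given.

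The order of the levels over the 9 groups differed among the genes. Adult CX was the highest group for Fos, Fosb, Junb, Egr1, Egr2, Arc, Npas4 and Nr4a1, and adult HIP the second for all of these but Fos. For Fos the second was adult CB, at 39.95 ± 18.37 CPM, and its WT libraries overlapped those of adult CX (81.2 ± 29.15 CPM) but not those of adult HIP (15.5 ± 5.41 CPM). For Arc adult CX (408.5 ± 145 CPM), HIP (149.4 ± 24.29) and CB (23.03 ± 1.43) did not overlap, while adult CB and P7 HIP (19.18 CPM) did. Dusp1 was highest in adult CB, 47.53 ± 8.92 CPM, overlapping adult CX, and its lowest groups were P7 CX (7.51 CPM) and P7 HIP (7.005 CPM). Nab2 in adult CB, 70.65 ± 4.86 CPM, was above every other group, and adult HIP and CX (30.37 and 30.05 CPM) overlapped. At E17.5 the regions overlapped for Fos, which was between 0.9122 and 1.597 CPM on average.

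Regional differences within WT mice were tested with the mouse as a block. In adults 9 of 10 genes were called lower in HIP than in CX and none higher (all genes, 25.9% lower and 25.5% higher). The largest of these was Egr2 (log2 fold change −2.73, SE 0.22), then Npas4 (−2.52, SE 0.21) and Fos (−2.39, SE 0.16), and the exception was Nab2 (0.00, SE 0.084, adjusted p = 0.9714 from edgeR). Against CX, CB had 8 genes lower and 1 higher (36.5% and 38.9% of all genes). Egr2, 1 of these 8, was below the filter within adult CB and entered the test through the other regions, so its call is a description. Arc was lower there by 4.10 on the log2 scale (SE 0.18) and Fos by 1.06 (SE 0.15), Nab2 was 2.354-fold higher (SE of the log2 value 0.083), and Dusp1 was not called (0.13, SE 0.13, adjusted p = 0.3652 from edgeR). Against HIP, CB had 3 genes higher, Fos (2.516-fold), Dusp1 (4.131-fold) and Nab2 (2.346-fold), and 7 lower (38.3% and 36.8% of all genes). Egr2 is again 1 of those called lower. In bulk tissue, fewer cells of a type and less RNA per cell cannot be told apart in any of these values.

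At P7 the forebrain regions were closer to each other. Of the 10 genes 3 were higher and 3 lower in HIP than in CX (27.8% and 29.2% of all genes). Arc was higher in HIP (14.7, 18.1 and 25.5 CPM at the lowest, median and highest, against 9.73, 12.7 and 14.1 CPM in CX, log2 fold change 0.60, SE 0.087), and Npas4 lower (log2 fold change −1.07, SE 0.16). In CB 8 genes were lower than in CX and 1, Dusp1, higher (38.8% and 44.1%), and 9 were lower than in HIP and 1 higher (36.0% and 42.3%). Fosb and Npas4, lower in both, were below the filter within P7 CB and entered the test through the other regions. Their calls are a description. Npas4 was at 0.141, 0.189 and 0.377 CPM in CB (5 to 12 counts) against 3.24, 4.32 and 6.67 CPM in CX, without overlap. Fos did not differ between CB and CX at P7 (log2 fold change 0.04, SE 0.12, adjusted p = 0.7756 from edgeR).

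At E17.5, where 9 of the 10 genes passed the filter on low counts over the 3 regions, the differences were fewer. In HIP Fos (log2 fold change 0.84) and Arc (1.01) were higher than in CX and Dusp1 (−0.51) and Nab2 (−0.64) lower (24.2% and 22.3% of all genes). In CB Arc was higher than in CX (1.18), and Junb, Nr4a1, Dusp1 and Nab2 were lower (31.3% and 30.3%). Against HIP, CB had 4 genes lower and none higher (24.5% and 25.0%).

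Several genes turned the direction of their regional difference with age. Nab2 was lower in CB than in CX at P7 (log2 fold change −2.39) and higher in adults (1.24), a difference of 3.66 between the periods (adjusted p = 9.753e-20 from edgeR's interaction term in WT mice). Arc in CB went from above CX at E17.5 (1.18) to below it at P7 (−1.66). Fos in HIP went from above CX at P7 (0.26) to below it in adults (−2.39), and Arc did the same (0.60 and −1.43). From P7 to adults the interaction called 8 of 10 genes between CB and CX (61.0% of all genes) and 7 of 10 between CB and HIP (57.5%), and from E17.5 to P7 it called 9 (69.6%) and 8 (65.9%). Of the 10 tested, Fosb and Egr2 were below the filter within each region at E17.5, and Npas4 within E17.5 CX. Fosb and Npas4 were below it within P7 CB and Egr2 within adult CB. Any calls of these genes are a description.

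The question of the study, whether loss of 1 Cul3 copy altered expression, was asked of these genes region by region at every period, in 9 comparisons. After adjustment over all genes, edgeR's quasi-likelihood test called none of the members tested, 7, 8 and 8 in E17.5 CX, HIP and CB, 10, 10 and 8 at P7 and 10, 10 and 9 in adults. It called 1 gene, Cul3, in each, which is 0.00603%, 0.00586% and 0.00568% of the genes tested at E17.5, 0.00566%, 0.00563% and 0.0057% at P7 and 0.00569%, 0.00584% and 0.00584% in adults. At an unadjusted p under 0.05 it found Arc in P7 CX, Nab2 in P7 HIP, Nab2 in adult CX, and Egr1 and Nab2 in adult HIP, where 3.22%, 5.05%, 3.66% and 6.25% of all genes were under this value. In the other combinations it found none, against 1.67%, 2.29% and 3.5% of all genes in E17.5 CX, HIP and CB, 4.89% in P7 CB and 14.4% in adult CB. Over the 9 comparisons the SE of a member's log2 fold change ran from 0.049 to 0.5819, so small differences would not have been detectable for the more variable genes. The smallest adjusted p of any of the 10 genes was 0.3626, and in no combination did the WT and Cul3+/- values of a member stand without overlap, where 0.0586% (E17.5 HIP) to 2.64% (adult CB) of all genes did so. RUVs, the kind of correction for unwanted variation that the study used, was tried as an alternative without a sex term. It called Nab2 with 3 factors and Nab2 and Npas4 with 5 factors in adult CX, where it called 33 and 85 of 17569 genes. In adult HIP it called Egr1, Npas4 and Junb with 3 factors and these and Egr2 with 5, where it called 195 and 475 of 17123 genes. Of these, Npas4 was lower in Cul3+/- mice and Nab2, Egr1, Junb and Egr2 higher.

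**Figure D2:**
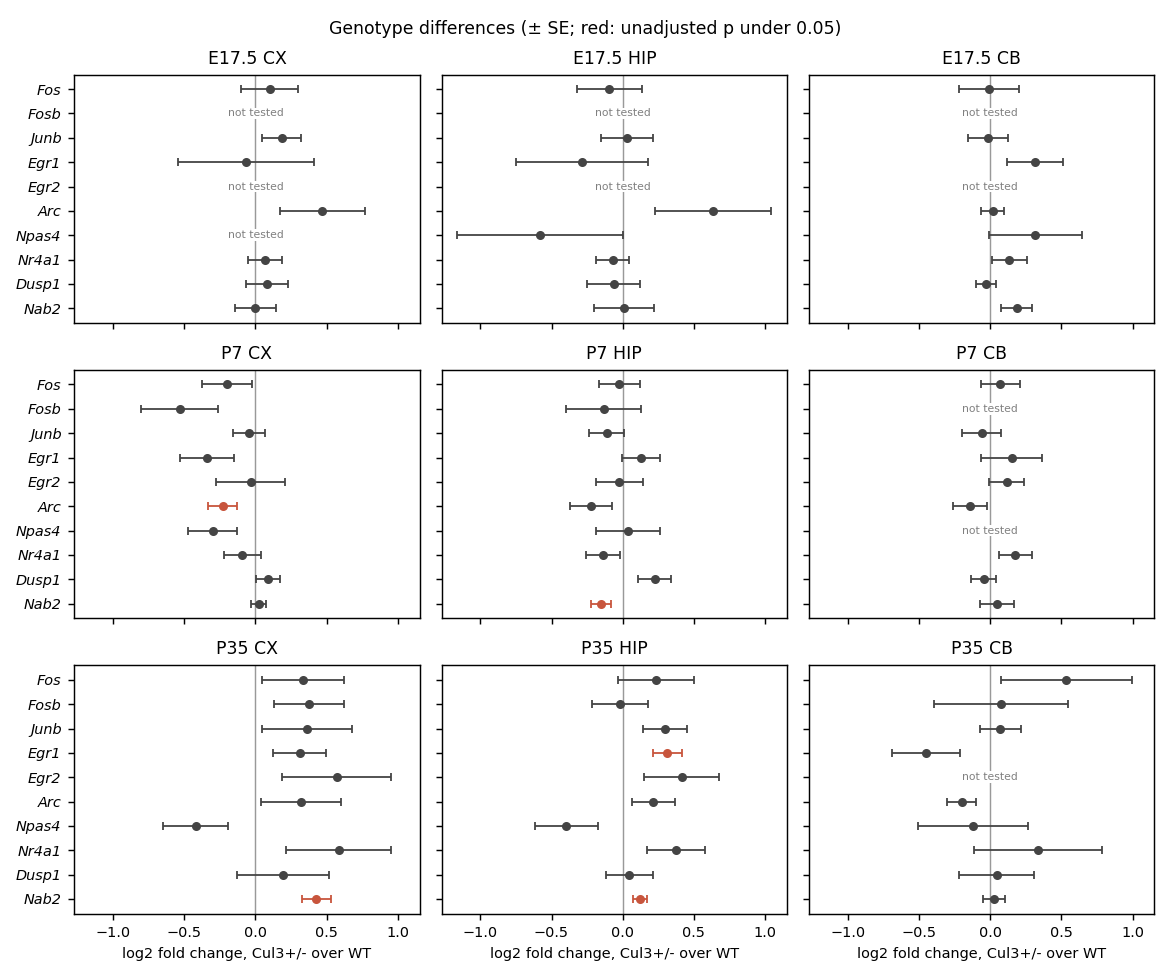
Log2 fold change of Cul3+/- over WT mice for each immediate early gene in the 9 genotype comparisons, with its SE from edgeR; red marks an unadjusted p under 0.05, and genes below the filter on low counts are shown as not tested. In adult CX 9 of 10 estimates are above 0, with a median of 0.35, and none was called after adjustment.

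At P7 the values of the genotypes lay close together. Arc in P7 CX was at 9.73, 12.7 and 14.1 CPM in WT mice and at 9.07, 10.1 and 12.8 CPM in Cul3+/- mice (lowest, median and highest of 6), a log2 fold change of −0.23 (SE 0.10, unadjusted p = 0.04179, adjusted p = 0.8997 from edgeR). Nab2 in P7 HIP was at 21.5, 23.7 and 26.2 CPM in WT and 19.3, 20.8 and 24.5 CPM in Cul3+/- mice (log2 fold change −0.15, SE 0.069, unadjusted p = 0.04793, adjusted p = 0.8328 from edgeR). The ranges overlapped in both. Of 21 alternative settings, 10 took the p of Arc over 0.05 and 12 that of Nab2.

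In adult CX and HIP most of the genes were higher on average in Cul3+/- mice. The median log2 fold change was 0.35 in CX, with 9 of 10 genes above 0, and 0.22 in HIP, with 8 of 10, and the genes below 0 were Npas4 in both regions (−0.42 and −0.40) and Fosb in HIP (−0.02). Over all genes the median was 0.00 in both regions, and 52.0% and 48.7% were above 0. In CB it was 0.05, with 6 of 9 above 0. At E17.5 and P7 the median lay between −0.14 and 0.08. Every pair of the 10 genes had an r above 0 across adult mice in CX and HIP, the lowest being 0.05 and 0.04. In adult CB 28 of 36 pairs of the 9 genes tested did, and the lowest r was −0.75. The directions of the genes are therefore not separate observations.

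Nab2 had the smallest p of the 10 genes. In adult CX the WT mice P35_11, P35_15, P35_17, P35_26 and P35_31 had 25.1, 28.7, 34.3, 35.3 and 26.9 CPM, and the Cul3+/- mice P35_12, P35_14, P35_16, P35_27 and P35_32 had 42.2, 39.1, 46.2, 34.7 and 37.4 CPM. The highest WT mouse was above the lowest Cul3+/- mouse, and the others did not cross. The log2 fold change was 0.43 (SE 0.10, unadjusted p = 0.001014, adjusted p = 0.9967 from edgeR) and stayed between 0.34 and 0.50 in all 19 alternative settings, each with an unadjusted p under 0.05. In HIP it was 0.12 (SE 0.049, unadjusted p = 0.02584, adjusted p = 0.7959 from edgeR), with 30.8, 29.5, 32.3, 31.2 and 28.1 CPM in WT and 34.5, 34.0, 32.9, 31.3 and 32.2 CPM in Cul3+/- mice. Stat6 and Nemp1, whose spans overlap exons of Nab2, were at 11.3 to 12.52 and 3.852 to 4.777 CPM in adult WT CX. In Cul3+/- CX Stat6 was at 11.36 CPM or more (median 11.97) and Nemp1 at 4.003 to 4.676 CPM, and the genotypes overlapped for both genes.

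Egr1 in adult HIP was at 30.2, 31.9, 37.4, 38.0 and 25.9 CPM in the WT mice and at 42.8, 41.9, 46.2, 37.6 and 34.0 CPM in the Cul3+/- mice. The log2 fold change was 0.31 (SE 0.10, unadjusted p = 0.008965, adjusted p = 0.7959 from edgeR), between 0.24 and 0.38 in 19 alternatives. Leaving out P35_12, P35_15 or P35_31 left 1 member in HIP with an unadjusted p under 0.05 in place of 2. In each of these fits Egr1 or Nab2 was therefore no longer under 0.05. In adult CB its mean was 15.26 CPM in WT and 11.32 CPM in Cul3+/- mice, and the interaction of genotype with region in adults had an unadjusted p of 0.001819 for Egr1 and 0.005698 for Nab2 (adjusted p = 0.2547 for both, from edgeR). That interaction called none of the members at any period, against 0.0%, 0.0% and 0.00525% of all genes (E17.5, P7, adults), and 2.5%, 4.57% and 15.8% of all genes had an unadjusted p under 0.05.

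The number of members with an unadjusted p under 0.05 in adults changed most with 1 Cul3+/- mouse, P35_27, which was low in the immediate early genes in all 3 regions. It was singled out by its low values in these same genes, so leaving it out shifts the Cul3+/- means by construction. Most of the genes also moved together across mice, so the counts without it are a description and not separate observations. Without it, 8 of 10 genes in CX had an unadjusted p under 0.05 instead of 1 (4.89% of all genes), all higher in Cul3+/- mice, and the median log2 fold change was 0.50. Nr4a1 then had a log2 fold change of 0.82 (SE 0.27, unadjusted p = 0.009673), Fos 0.55 (SE 0.19, unadjusted p = 0.01428) and Arc 0.52 (SE 0.20, unadjusted p = 0.0218), each with an adjusted p of 0.9517 from edgeR. In HIP 6 of 10 genes were under 0.05 instead of 2 (5.28% of all genes), and in CB 2 of 9, Fos (0.81, SE 0.27) and Arc (−0.30, SE 0.083), instead of none (12.1%). No member was called after adjustment in any of the 3 regions. Leaving out the WT mouse P35_17 gave 5 genes in CX (8.67%) and 3 in HIP (7.28%), and leaving out the WT mouse P35_26 gave 2 in CX (4.63%) and 5 in HIP (8.8%). Leaving out any of the other 7 mice gave 1 or 2 genes in CX and 1 or 2 in HIP.

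In P35_27 none of 10 genes in CX or HIP and only Arc of 9 in CB were above the mean of the Cul3+/- mice. Its median deviation from that mean on the log2 scale was −1.25 in CX, −0.46 in HIP and −1.27 in CB. Fos in CX was at 37.6 CPM in P35_27 and at 136, 106, 119 and 106 CPM in the Cul3+/- mice P35_12, P35_14, P35_16 and P35_32. Arc in CX was at 203.8 CPM against 594, 537, 571 and 614 CPM, and Dusp1 in CX at 14.7 CPM against 67.0, 55.8, 51.6 and 61.7 CPM. These values lay below all 5 WT mice for each of the 3 genes. Neuron markers in CX had scores (mean log2 CPM) between 9.50 and 9.67 in the 10 adults, and P35_27 was within the others' range in CX for glucocorticoid-responsive genes (5.18, of 4.85 to 5.37) and heat shock genes (5.80, of 5.12 to 5.83). Its choroid plexus score in CX was 0.89, against −1.49 to −0.68 in the other adults, and the part of this in the result was not tested.

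The WT mouse P35_17 stood on the other side, where 10 of 10 cortical, 8 of 10 hippocampal and 8 of 9 cerebellar values were above the WT mean, with median deviations of 0.73, 0.24 and 0.88. Nr4a1 in CX was at 166 CPM there and at 57.5, 61.8, 124 and 72.6 CPM in the other WT mice, and in CB at 41.8 CPM against 11.2, 11.5, 20.2 and 13.3 CPM. Its choroid plexus score in HIP (5.60) and that of P35_26 (5.17) were above the −0.47 to 2.91 of the other adults. In CB its score for the hippocampal genes Zbtb20 and Prox1 was 7.18 and that of P35_26 was 6.71, against 5.81 to 6.08 in the others, while its score for cortical and hippocampal markers in CB, −1.50, was within the range of the others (−1.92 to −1.45). The part of these in the levels was not tested. WT mice P35_31 and P35_15 had 0 of 10 genes above the WT mean in CX.

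**Figure D3:**
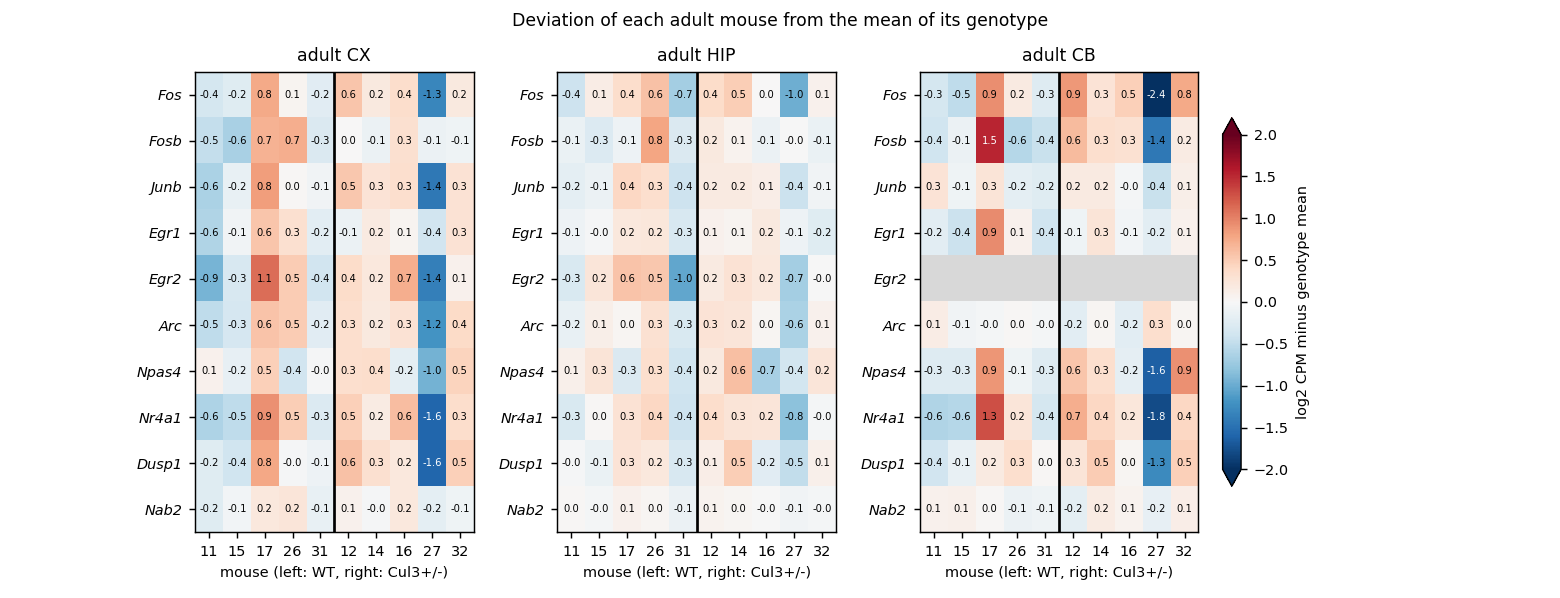
Log2 CPM of each adult mouse minus the mean of its genotype, for the 10 genes in CX, HIP and CB; columns are mice named by number with WT on the left, red is above and blue below the mean, and the value is written in each cell. P35_27 is blue throughout CX and HIP and P35_17 is red throughout CX.

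Whether a mouse that was high in 1 region was high in another was asked with the deviations of log2 CPM from the mean of the mouse's genotype. In adults 6 of 10 genes had an unadjusted p under 0.05 between CX and HIP by an exact permutation test of Pearson's r within genotypes (6.0% of all genes), 5 of 9 between CX and CB (5.68%) and 3 of 9 between HIP and CB (6.32%). The median r of the members was 0.74, 0.76 and 0.54, and that of all genes 0.12, 0.13 and 0.10. No gene of the table was called after adjustment over all genes in adults (0.0% in each pair). With so few adult mice the exact test can give no p below 6.944e-05, against 1.929e-06 at E17.5. A single gene could therefore not be called in adults, whatever its r. The adult adjusted p-values cannot decide whether a member is related between regions, and they cannot be compared with those at E17.5. An r of 0.7 or more was found for 6 of 10, 5 of 9 and 3 of 9 members and for 3.94%, 4.8% and 4.01% of all genes.

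Fos had the closest relation between CX and CB. Its values in CB were 29.3, 26.03, 71.0, 42.2 and 31.3 CPM in the WT mice, in the order given above, and 85.4, 56.0, 65.1, 8.85 and 79.0 CPM in the Cul3+/- mice. In both regions P35_17 was the highest WT mouse, P35_12 the highest Cul3+/- mouse and P35_27 the lowest of all. Pearson's r was 0.97 (exact permutation p = 0.002014, adjusted p = 0.6422) and Spearman's rho 0.98 (exact permutation p = 0.00125, adjusted p = 0.695). Without the 2 mice farthest from the median in CX, P35_27 and P35_11, r was 0.92, and it was 0.97 in WT and 0.99 in Cul3+/- mice alone.

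Nr4a1 behaved alike, with r = 0.96 between CX and CB (exact permutation p = 0.003819, adjusted p = 0.6562), rho = 0.79 (exact permutation p = 0.01319) and r = 0.89 without the 2 farthest mice. Npas4 had r = 0.94 (exact permutation p = 0.006528, adjusted p = 0.7187), but 0.65 without the 2 farthest, and Dusp1 r = 0.90 (exact permutation p = 0.02486, adjusted p = 0.8465), but 0.56. For Egr1 r was 0.76 (exact permutation p = 0.02806, adjusted p = 0.8532) and 0.80 without them. Spearman's rho was 0.75 for Npas4, 0.75 for Dusp1 and 0.79 for Egr1 (exact permutation p = 0.02104, 0.02958 and 0.02611). Arc went the other way between CX and CB, with r = −0.68 (exact permutation p = 0.06736, adjusted p = 0.8657), but r was 0.16 without the 2 farthest mice. P35_27, the lowest in CX, had 25.4 CPM of Arc in CB, equal to the highest WT mouse to 3 digits, and the other Cul3+/- mice had 17.4 to 20.8 CPM.

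Between CX and HIP the 6 genes were Nr4a1 (r = 0.89, exact permutation p = 0.01403), Arc (0.83, p = 0.03382), Fos (0.79, p = 0.02292), Junb (0.77, p = 0.01604), Egr2 (0.76, p = 0.0184) and Dusp1 (0.72, p = 0.03535), with adjusted p from 0.6945 to 0.8071. Without the 2 mice farthest from the median in CX these r were 0.65, 0.43, 0.45, 0.66, 0.67 and 0.29. In the same order rho over all mice was 0.77, 0.54, 0.53, 0.77, 0.79 and 0.71, and for Arc and Fos its exact permutation p was 0.1374 and 0.1405, over 0.05. For Nab2 r was 0.60 with all mice and 0.94 without the 2 farthest. Between HIP and CB they were Nr4a1 (r = 0.86, exact permutation p = 0.01674), Dusp1 (0.76, p = 0.01715) and Fos (0.76, p = 0.03764), with adjusted p from 0.6493 to 0.7689. Without the 2 mice farthest from the median in HIP these r were 0.66, 0.59 and 0.41, and rho over all mice was 0.76, 0.78 and 0.50, with an exact permutation p of 0.1649 for Fos.

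These counts rested in part on P35_27. Without it no member had a p under 0.05 between CX and HIP or between HIP and CB, and 3 had between CX and CB, Fos (r = 0.92, exact permutation p = 0.01007), Nr4a1 (0.91, p = 0.0191) and Npas4 (0.82, p = 0.03264). Leaving out any 1 mouse gave 0 to 7 genes between CX and HIP, 3 to 6 between CX and CB and 0 to 3 between HIP and CB.

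**Figure D4:**
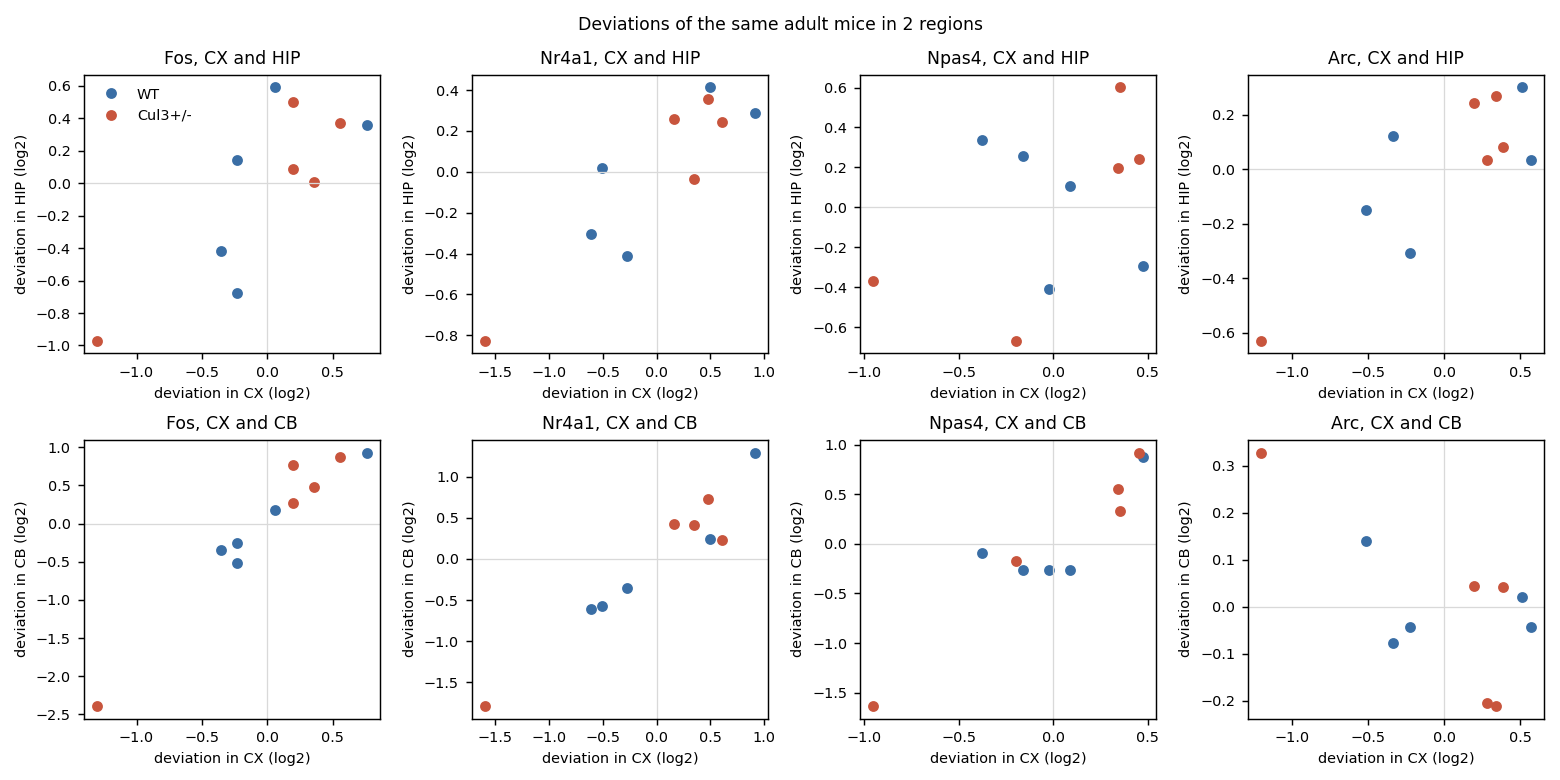
Deviation of log2 CPM from the genotype mean in CX (x axis) and in HIP (top) or CB (bottom, y axis) of the same adult mice, for Fos, Nr4a1, Npas4 and Arc; each point is a mouse, blue WT and red Cul3+/-. In CB the points of Fos and Nr4a1 lie along a line (r = 0.97 and 0.96), and those of Arc do not rise together.

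At P7 no member had a p under 0.05 between any 2 regions, while 15.01%, 10.2% and 9.56% of all genes did for CX and HIP, CX and CB, and HIP and CB. The highest r was that of Npas4 between CX and HIP, 0.53 (exact permutation p = 0.06197, adjusted p = 0.3618). At E17.5 2 of 7 genes were under 0.05 between CX and HIP, Arc (r = 0.80, adjusted p = 0.0318 from the exact permutation test) and Egr1 (r = 0.70, adjusted p = 0.0517), and both were called, as were 22.3% of all genes (28.6% had an unadjusted p under 0.05). By Spearman's rho (0.71 and 0.61) neither was called (adjusted p = 0.1099 and 0.1634 from the exact permutation test), and without the 2 mice farthest from the median in CX r was 0.60 and 0.69. Between CX and CB 2 of 7 were under 0.05 (17.7% of all genes), Fos (r = 0.63) and Junb (0.50), and between HIP and CB 3 of 8 (17.6%), Arc (0.59), Nab2 (0.69) and Npas4, whose r was −0.71, and none of these was called.

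Within a region, the members moved together most in adults. As a description, with mice and libraries shared by all pairs, the median Pearson's r over pairs of members was 0.80 in adult CX (45 of 45 pairs above 0), with 0.74 for adult HIP (45 of 45) and 0.55 for adult CB (28 of 36). P7 CX had 0.42 (42 of 45), P7 HIP 0.54 (43 of 45) and P7 CB −0.05. At E17.5 it was between −0.06 and 0.08. Over all pairs of genes it was between −0.0035 (P7 CX) and 0.0185 (adult HIP) in the combinations of period and region. The adult values, and those of Per1 that follow, are of all 10 adult mice compared. They were not computed without P35_27 and P35_17, which were low and high in most members. How far the adult values rest on these mice was not tested. Of 14777 genes measured in all 9 combinations, Per1, a clock gene that also responds to glucocorticoids, had the deviations most like the mean of the members, with a median r of 0.71 over the 9 (0.94, 0.71 and 0.83 in adult CX, HIP and CB, and −0.36 in E17.5 CX). It was followed by Deaf1 (0.65), Dlgap3 (0.64), Gpr146 (0.64) and Clstn3 (0.61), and the median over all genes was −0.01.

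At E17.5 levels of several members differed with the prefix of the mouse names. The names at E17.5 hold S2, S3 or S4, each with 2 WT and 2 Cul3+/- mice, and those at P7 hold C1, C2 or C4, and what the prefixes stand for is not given in the sources used here. Levels differed among the prefixes, with genotype in the model, for 4 of 7 members in E17.5 CX (42.7% of all genes), 5 of 8 in HIP (30.9%) and 2 of 8 in CB (28.2%). Egr1 in E17.5 CX was at 0.309, 0.507 and 0.664 CPM (lowest, median and highest of 4) in mice with S3, at 1.15, 1.60 and 1.85 CPM with S2 and at 1.85, 2.08 and 2.21 CPM with S4. Every mouse with S3 was below all others (adjusted p = 9.387e-05 from edgeR), and in HIP S3 was again the lowest, at 0.415, 0.721 and 0.843 CPM (adjusted p = 0.01477 from edgeR). In CB the prefixes overlapped more, with medians of 1.33, 0.853 and 0.924 CPM in S2, S3 and S4.

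Arc and Dusp1 moved the other way, and mice with S3 had the most of both in CX. For Arc they had 2.25, 2.96 and 5.01 CPM, against 1.47, 2.19 and 2.49 with S2 and 1.07, 1.62 and 1.75 with S4 (adjusted p = 0.004486 from edgeR). For Dusp1 they had 19.3, 19.5 and 21.0 CPM, against 15.1, 16.8 and 17.48 and 12.1, 13.1 and 13.8, with no overlap of the 3 prefixes (adjusted p = 4.432e-05 from edgeR). Marker scores in E17.5 CX moved with the prefix as well. Cortical and hippocampal markers were at 7.386 to 7.677 in S3 and at 6.751 to 7.137 elsewhere, neuron markers at 6.88 to 6.985 in S3 and 7.103 to 7.359 elsewhere, and endothelial markers at 1.184 to 1.994 and 2.127 to 2.552. Delayed activity-regulated genes were at 1.582 to 1.931 in S3 and 2.166 to 2.712 elsewhere in CX, and at 1.896 to 2.696 and 3.049 to 3.43 in HIP, and glucocorticoid-responsive genes in CX were at 4.021 to 4.133 and 4.205 to 4.412. Their part in the result was not tested.

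Taking the prefix out of the deviations changed the r of several members between regions at E17.5. The p-values of this step permuted mice within genotype but across prefixes. They are not exact for these deviations and are a description. Between CX and HIP the r of Egr1 was then −0.78 in place of 0.70 (permutation p = 0.003144) and that of Arc 0.49 in place of 0.80 (permutation p = 0.09153). Between HIP and CB the r of Fos was 0.90 in place of 0.13 (permutation p = 0.0003376), that of Dusp1 0.73 in place of 0.52 (permutation p = 0.01607) and that of Nab2 0.80 (permutation p = 0.003266), all unadjusted. Arc and Npas4 between HIP and CB (r = 0.33 and −0.48) and Fos and Junb between CX and CB (0.22 and 0.21) then had a permutation p over 0.05.

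**Figure D5:**
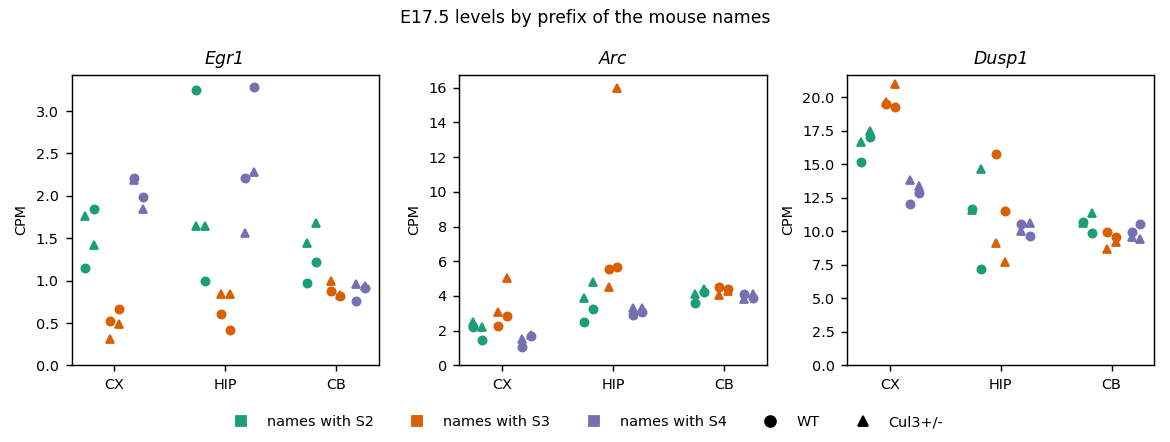
CPM of Egr1, Arc and Dusp1 in each E17.5 library by region, coloured by the prefix of the mouse name; circles are WT and triangles Cul3+/- mice. In CX the 4 mice with S3 are the lowest for Egr1 (0.309 to 0.664 CPM) and the highest for Dusp1 (19.3 to 21.0 CPM).

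At P7 the prefixes differed for 2 of 10 members in CX, Egr1 (adjusted p = 0.0499 from edgeR) and Junb (adjusted p = 0.0686), against 2.17% of all genes, and for none in HIP and CB (0.0% and 0.0742%). Egr1 in P7 CX was at 11.2, 14.1 and 15.3 CPM with C1 and at 17.1, 20.2 and 30.8 CPM with C2, without overlap. The adult mice carry no prefix.

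Other genes of the same pathway were followed by lists. From P7 to adults in WT CX, where 33.2% of all genes were called higher and 34.5% lower, 9 of 17 other immediate early transcription factors were called higher and 4 lower (median log2 fold change 0.60), 17 of 23 other immediate early effectors higher and 3 lower (0.99), and 7 of 8 delayed activity-regulated genes higher and none lower (1.61). Upstream factors and kinases, among them those that act on CREB and SRF, had 5 of 12 higher and 4 lower (−0.03), and heat shock genes 5 of 6 higher (0.78). From E17.5 to P7 the delayed genes had 6 of 8 higher and 1 lower in CX (2.67, all genes 41.3% and 40.6%) and 8 of 8 higher in HIP (2.10, all genes 38.9% and 39.1%). In CB from P7 to adults, where 40.0% of all genes were called higher and 39.4% lower, the effectors had 8 of 23 higher and 12 lower (−0.31) and the transcription factors 10 of 16 higher and 3 lower (0.43). In adult HIP against CX, 12 of 17 transcription factors were lower and 2 higher, 13 of 23 effectors lower and 6 higher, and 5 of 8 delayed genes lower and 1 higher (all genes, 25.9% lower and 25.5% higher). In adult CB against CX 11, 15 and 7 were lower and 3, 5 and 1 higher (36.5% and 38.9%). By edgeR's quasi-likelihood test no gene of these lists was called between genotypes in any of the 9 combinations.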

How the data were processed

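Libraries were stranded, from total RNA depleted of ribosomal RNA. The authors trimmed reads with Cutadapt 1.14, aligned them with STAR 2.5.3a to GRCm38.p5 and deposited RSEM 1.3 expected counts per gene, not normalized. RSEM's strand setting is not given in the sources used here. Of the deposited values 5.76% were not whole, and all were rounded.

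Low genes were removed with filterByExpr (at least 10 counts, 15 in all) and tested with edgeR 4.0.16 (R 4.3.3): TMM normalization, quasi-likelihood test, Benjamini-Hochberg adjustment over all genes tested, threshold 0.1. Development was tested within region and regions within period (mouse as block), in WT mice; genotype was tested within each of 9 combinations, and its interaction with region per period. SE was taken as the size of the log2 fold change over the root of F. Log2 CPM used a prior count of 2. Correlations between regions used 90 member relations at most; p-values came from exact permutation within genotypes over all genes and were adjusted over all genes of a pair, not over the member relations as planned. P-values of development, genotype and prefix within a region are set against the spread between these mice. Those of regional differences and interactions are set against the spread left once the mouse is taken out.

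The members and lists were chosen with earlier results of these data known. Genes outside the members were named only if called between genotypes or, for likeness, by the highest median correlation. The prefix tests, prefix block and period by region interaction were added after seeing the data. Alternatives were DESeq2 1.42.0, the likelihood ratio test, RUVs with 3 and 5 factors, other normalization, prior count (0.5) and filter, replicate block, Cul3+/- mice in place of WT, P35_22 and P35_23 put back, and each replicate left out. Scripts were tested on simulated data. Same-numbered WT and Cul3+/- libraries deviated together in every pair only in E17.5 CX (r from 0.113 to 0.757, median 0.472). They also share the prefix of the mouse name, and a pairing by number was not separated from the prefix. What the numbers stand for is not given in the sources used here.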

Additional observations from a re-analysis of the deposited data

Results flagged for a closer look

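Of 160 groups of 5 or 6 libraries, 18 held a member's value set apart from the others of its group by its gap relative to the range. For separate groups chance gives about 1 in 20, but these groups share libraries and are not separate. Cul3+/- mouse P35_27 gave 10 of the 18 values, all low. In CX these were Fos (37.6 CPM, others from 106.1), Junb (40.98, others from 133.3), Arc (203.8, others from 536.7), Nr4a1 (41.87, others from 141.2) and Dusp1 (14.72, others from 51.58). In HIP it was Arc (109.1, others from 172.9), and in CB Fos (8.847, others from 56.02), Fosb (0.3816, others from 1.275), Nr4a1 (6.245, others from 25.44) and Dusp1 (18.94, others from 47.02). WT mouse P35_17 was high in CB for Fosb (2.985 CPM, others up to 0.9132) and Npas4 (7.854, others up to 3.984), and WT mouse P35_26 was high in HIP for Fosb (7.075, others up to 3.78).

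At P7, Cul3+/- mouse P7_C1_3 was low for Fos in CX (3.014 CPM, others from 5.128) and Junb in HIP (8.791, others from 12.84). Cul3+/- mouse P7_C1_7 was low for Junb in CB (2.344, others from 3.376), and WT mouse P7_C2_4 was high for Nab2 in CX (19.73, others up to 17.67). At E17.5, Cul3+/- mouse E17_5_S3_9 had 16.01 CPM of Arc in HIP, where the others had up to 4.779.

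The regional difference of a member changed between periods by edgeR's interaction term in WT mice for 5, 9 and 8 of 10 members from E17.5 to P7 (HIP against CX, CB against CX, CB against HIP) and for 10, 8 and 7 from P7 to adults. Fosb, Egr2 and Npas4 were below the filter within some of the groups compared, so these counts are a description. Between E17.5 and P7, with both differences called, the log2 difference turned for Nab2 in HIP against CX (−0.6431 to 0.406, change 1.0892), for Arc in CB against CX (1.1788 to −1.6569, change −2.8037) and for Dusp1 in CB against CX (−0.6141 to 0.9855, change 1.6105). Between P7 and adults it turned for Fos and Arc in HIP against CX (changes of −2.6801 and −2.0487), for Nab2 in CB against CX (3.6572) and for Fos and Nab2 in CB against HIP (1.611 and 4.0803).

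Mice P35_22 and P35_23, left out for their opposite genotypes in the labels and in the study's table, lay outside the range of the WT mice compared for several members. Their CPM were scaled with all 108 libraries and those of the other mice with the 102 compared. Narrow gaps, such as those of P35_22 for Fosb in CX and Dusp1 in CB, are therefore not secure. Fosb in CX was at 26.4 CPM in P35_22 (WT up to 25.05). Egr1 in HIP was at 41.5 and 39.26 CPM in P35_22 and P35_23 (WT up to 37.95), Nab2 in CX at 44.48 and 44.35 CPM (WT up to 35.29) and Nab2 in HIP at 36.7 and 36.04 CPM (WT up to 32.29). Values below every WT mouse were found for Npas4 in both mice in each region, at 19.1 and 15.6 CPM in CX (WT from 38.3), 4.19 and 2.39 CPM in HIP (WT from 6.45) and 2.94 and 1.41 CPM in CB (WT from 3.52). Dusp1 was below as well, at 23.9 and 28.7 CPM in CX (WT from 32.2) and 35.6 and 27.8 CPM in CB (WT from 35.9). In CB 1 of the mice was also below for Fos, Fosb and Egr1 (P35_22) and for Arc (P35_23), and P35_23 was above for Egr2, at 0.144 CPM. The Cul3+/- mice compared had ranges that held both mice for Nab2 in CX (34.7 to 46.2 CPM) and Egr1 in HIP (34.0 to 46.2). The same was true of Dusp1 in CX (14.7 to 67.0) and CB (18.9 to 65.3) and of Npas4 in CB (1.11 to 6.82). For Npas4 in CX and HIP they held P35_22 alone (Cul3+/- from 18.3 and 3.98). Nab2 in HIP (Cul3+/- up to 34.5) and Fosb in CX of P35_22 (up to 26.1) were above the Cul3+/- mice as well.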

How the results depend on the processing

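The counts of members called in development and in regional differences stayed within 1.5 times in all alternatives run, leave-one-out included. No gene test called a member between genotypes except RUVs, with 1 (3 factors) and 2 (5 factors) members in adult CX and 3 and 4 in adult HIP, where it called 33, 85, 195 and 475 of all genes. DESeq2 called 1 member in the adult genotype by region interaction, 1 among prefixes in E17.5 CB and 4 in P7 CX. The period by region interaction from E17.5 to P7 (HIP against CX) called 2 members in Cul3+/- mice in place of 5. Of all genes, DESeq2 called 218 and the likelihood ratio test 150 in adult CB, in place of 1.

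Among values past p = 0.05 the direction turned in 3, Nab2 in adult HIP against CX in Cul3+/- mice (log2 fold change −0.28, p = 0.003157 from edgeR), Egr1 between E17.5 CX and HIP with genotype and prefix taken out (r = −0.7849) and Junb between E17.5 HIP and CB in WT mice alone (r = −0.8625). The p of Egr1 here permuted mice across prefixes and is a description. The cause of these turns was not tested. A further 80 correlations, 24 regional differences and 4 developmental changes that were not past the threshold changed sign.

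Members with p under 0.05 between regions were 0 (WT alone) and 1 (prefix taken out) for E17.5 CX and HIP, and 1 (Spearman), 0 (WT), 1 (Cul3+/-) and 0 (prefix) for E17.5 CX and CB. At P7 they were 1 (Spearman) and 2 (WT) for CX and HIP and 1 (Cul3+/-) for HIP and CB. In adults they were 0 (WT) and 0 (Cul3+/-) for CX and HIP, 2 and 2 for CX and CB, 0 and 1 for HIP and CB, and 5 for HIP and CB with P35_22 and P35_23 put back. Single genotypes hold fewer mice. With the prefix taken out, mice were permuted across prefixes, so those p-values are not exact. Without single replicates, members under 0.05 ranged from 0 to 2 (E17.5 CX and CB), 1 to 3 (E17.5 CX and HIP, and HIP and CB), 3 to 6 (adult CX and CB), 0 to 7 (adult CX and HIP), 0 to 3 (adult HIP and CB) and 0 to 1 (P7 CX and HIP, and HIP and CB). Members called among prefixes ranged from 0 to 2 in E17.5 CB, 3 to 6 in HIP, 4 to 6 in CX and 0 to 3 in P7 CX.

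With the replicate number as a block, 0 members were called between genotypes, and in E17.5 CX, where same-numbered libraries deviated together, 55 genes were called in place of 1. In the other combinations 1 or more same-numbered pairs had a correlation of 0.1 or less. At E17.5 and P7 same-numbered libraries share the prefix of the mouse name, and a pairing by number was not separated from the prefix. Depth limits the E17.5 values, where Fos had as few as 17 counts in CX.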
